A study of Mus musculus with 18 samples.

Results

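The circadian clock genes described here are 10 genes chosen by their role in the molecular clock and not by their values, although earlier results of these data were known. They are the activators Arntl (also called Bmal1) and Clock, the repressors Per1, Per2, Per3, Cry1 and Cry2, the REV-ERB receptors Nr1d1 and Nr1d2, and the output factor Dbp. All 10 were among the 30072 genes of the tables and all 10 passed the filter on low counts. RNA sequencing covered the intraventricular septum of 18 adult CD-1 mice, an outbred wild-type stock, male and female and at least 8 weeks old. Control mice (n = 6) were anesthetized with isoflurane and, per the study's methods, had CT imaging but no therapeutic radiation. The other mice had the same anesthetic and imaging and received 25 Gy to the heart as a single dose. They were sampled 2 weeks (n = 6) or 6 weeks (n = 6) post-irradiation (IR). The sample labels call the radiation gamma and the tissue septum, whereas the study's methods describe an X-ray platform and ventricular tissue. The labels do not tie a sex to a mouse.

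The clock of mammalian cells is a feedback loop of transcription. ARNTL and CLOCK bind E-boxes as a pair and drive the Period and Cryptochrome genes, whose proteins return to the nucleus and repress that pair. The REV-ERB receptors are driven by the same pair and repress Arntl through ROR elements, so that Arntl and the Period genes peak at opposite times of day in most mouse tissues, the heart included. Because their levels change with the hour, the 10 genes also serve as a check on the time of collection. The labels give no hour of collection for any mouse. A difference of hour between groups and an effect of irradiation therefore cannot be told apart here.

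Promoter sequence shows these loops as letters, and the stretches printed here are those that hold an element of the clock in a member's own promoter. RefSeq windows on GRCm38.p6, from 250 bases before a transcript start to 50 after it, were present for 9 of the 10 genes, as 13 windows. Both strands were searched for the E-box CACGTG, the E′-box CACGTT, which reads AACGTG on the other strand, the D-box TTATGTAA, which PAR bZIP factors such as DBP bind, and the ROR element TAGGTCA. Capitals mark the element, and each stretch reads 5′ to 3′ along the gene.
Cry1, chr10:85185084-85185158, minus strand, E′-box and E-box: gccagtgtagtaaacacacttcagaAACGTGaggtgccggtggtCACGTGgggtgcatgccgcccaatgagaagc
Per1, chr11:69098758-69098813, plus strand, E-box: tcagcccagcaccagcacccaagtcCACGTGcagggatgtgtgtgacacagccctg
Cry2, chr2:92434205-92434260, minus strand, E′-box: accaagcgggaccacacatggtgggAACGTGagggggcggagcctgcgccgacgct
Nr1d1, chr11:98775378-98775430, minus strand, E′-box: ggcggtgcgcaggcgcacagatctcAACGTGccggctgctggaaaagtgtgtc
Per3, chr4:151044791-151044895, minus strand, D-box at both sites: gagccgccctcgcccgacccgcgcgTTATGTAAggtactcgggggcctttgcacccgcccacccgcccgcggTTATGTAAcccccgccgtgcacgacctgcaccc
Arntl, chr7:113207530-113207559, plus strand, ROR element: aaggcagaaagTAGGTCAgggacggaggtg

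The E-box of Cry1 began 60 bases before the start and its E′-box 79 bases before. The E-box of Per1 and the E′-box of Cry2 both began 166 bases before their starts, and the E′-box of Nr1d1 began 28 bases before. The start used for Per1 is a RefSeq start inside the gene. Its window is chr11:69098699-69098998, whereas the gene begins at chr11:69095217. Per3 held its D-boxes 205 and 158 bases before the start, and the ROR element of Arntl lay 31 bases after the start, within the transcribed sequence. Over all 32851 windows, 7.15% held the E-box, 4.69% the E′-box, 0.938% the D-box and 2.61% the ROR element. The windows of Clock, Nr1d2 and Dbp held none of these letters, which says only that the letters are not in those windows. The matches are descriptions of sequence and not measured binding.

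None of the 10 clock genes changed at 2 or 6 weeks post-IR by edgeR's quasi-likelihood test at an adjusted P under 0.05, and DESeq2 and limma voom also called none. At 2 weeks, 755 of the 15054 genes tested were called (5.02%, with 3.09% higher and 1.93% lower), and at 6 weeks 3760 were called (25.0%, with 13.5% higher and 11.5% lower). Between 2 and 6 weeks 802 genes were called (5.33%, with 3.31% higher and 2.01% lower), again without a clock gene. At an unadjusted P under 0.05 the counts of clock genes were 1 at 2 weeks, 3 at 6 weeks and 0 between the times. The share of all genes at that threshold was not counted. Every gene called also passes it, so the share is at least 5.02%, 25.0% and 5.33% in the same order. These counts are therefore no sign of change in the clock genes. No clock gene passed the study's stricter rule, which adds an absolute log2 fold change above 1 and which 0.903%, 5.95% and 1.14% of all genes passed in the same order. For no clock gene were the values of 2 groups fully apart, a pattern seen in 3.24%, 9.23% and 3.54% of genes. The 2 irradiated groups share the same 6 control mice.

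The sizes of the differences were small. The median log2 fold change of the 10 genes was -0.16 at 2 weeks, -0.23 at 6 weeks and -0.012 between the times, beside -0.0015, -0.019 and -0.00075 over all genes. With libraries scaled by TMM, a factor that aligns the bulk of genes between mice, 8 of the 10 were below the controls at each time. On library size alone 5 were below at 2 weeks and 3 at 6 weeks. The scale of log2(TPM + 1), where TPM is a transcript level corrected for length and library total, had 3 and 0. The median of all genes was itself 0.15 and 0.24 higher on library size, and 0.18 and 0.29 higher on log2(TPM + 1). The counts on these scales are against 0 and include that shift of all genes. The 95% intervals say how much change the data allow. They were narrow for Dbp, from -0.36 to 0.02 at 2 weeks and from -0.41 to -0.04 at 6 weeks. For Arntl they were wide, from -0.82 to 0.82 at 6 weeks, so a rise to 1.76-fold or a fall to 0.565-fold was not excluded. In bulk tissue, fewer cells of a type and less RNA per cell cannot be told apart.

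**Figure D1:**
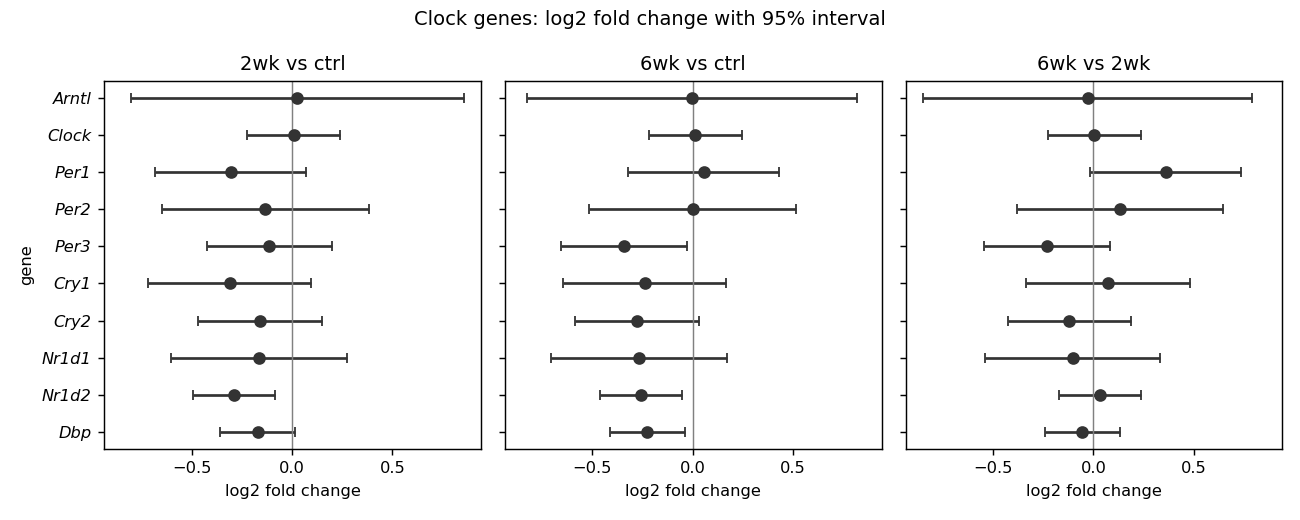
Log2 fold change (x axis) of the 10 clock genes (y axis) for 2 weeks against control, 6 weeks against control and 6 against 2 weeks. Points are edgeR estimates from 6 mice per group and bars are 95% intervals. No gene passed an adjusted P of 0.05, and the 6-week intervals of Per3, Nr1d2 and Dbp lie below 0.

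Total counts were 11522987 to 15501019 per mouse, and 3 counts correspond to 0.194 to 0.260 CPM, a count scaled to a common library total. The median share of counts from mitochondrial genes was 23.2% in control mice, 20.2% in the 2-week mice and 17.4% in the 6-week mice. Cardiomyocyte markers were abundant in every mouse, with a summed level of 15217 to 21380 TPM over 5 genes. Levels of the atrial markers Myl7, Sln and Nppa summed to between 125 and 2438 TPM and varied widely within each group. The scaling matters for direction. CPM values here are scaled by TMM, and without it the median of all genes was 0.15 higher at 2 weeks and 0.24 higher at 6 weeks on the log2 scale.

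Compared per transcript length, the clock genes spanned a wide range of levels. Over the 18 mice the median was 59.0 TPM for Dbp, 51.2 for Nr1d1, 44.9 for Nr1d2 and 34.5 for Per1. The remaining genes were lower, at 15.8 TPM for Cry2, 11.8 for Per3, 9.19 for Clock, 7.45 for Per2, 3.66 for Cry1 and 0.897 for Arntl. Neighbours in this order overlapped in their ranges over the mice, except that the lowest Per2 level (5.54 TPM) was above the highest Cry1 level (5.48 TPM) and the lowest Cry1 level (2.21 TPM) was above the highest Arntl level (2.06 TPM). The pair of activators that bind together thus stood far apart, with Clock at 6.29 to 12.4 TPM and Arntl at 0.308 to 2.06 TPM.

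Arntl (ENSMUSG00000055116, GRCm38 chr7:113207465-113314126) encodes the activator without which the clock stops. In control mice it ranged from 0.925 CPM through a median of 1.74 to 5.62 CPM, at 2 weeks from 1.06 through 2.38 to 4.33 CPM, and at 6 weeks from 1.25 through 2.25 to 4.10 CPM. These levels rest on few reads, with 10 to 81 estimated counts per control mouse, 16 to 59 at 2 weeks and 18 to 51 at 6 weeks. Its spread between mice therefore includes counting error. All 3 groups overlapped, and the highest control mouse exceeded the lowest 6.07 times. The means were 2.41 ± 1.74, 2.51 ± 1.11 and 2.46 ± 1.02 CPM (SD, n = 6 each), with log2 fold changes of 0.03 (SE 0.396) at 2 weeks and -0.0035 (SE 0.392) at 6 weeks.

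Clock (ENSMUSG00000029238, chr5:76209868-76304792) encodes the DNA-binding partner of ARNTL. Its level was 42.8 to 69.5 CPM in controls (median 49.2), 48.3 to 57.8 CPM at 2 weeks (median 50.3) and 42.6 to 60.5 CPM at 6 weeks (median 51.5). The group means lay within 51.3 to 51.8 CPM, and the log2 fold changes were 0.0075 at 2 weeks and 0.012 at 6 weeks, with intervals of -0.22 to 0.24. On the log2(TPM + 1) scale, where the median of all genes was 0.29 higher at 6 weeks, Clock was 0.40 higher at 6 weeks (limma, adjusted P = 0.00612), which is 0.11 beyond that shift. In TPM the means were 7.65 ± 1.66, 9.29 ± 0.889 and 10.3 ± 1.27 (SD, n = 6 each).

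**Figure D2:**
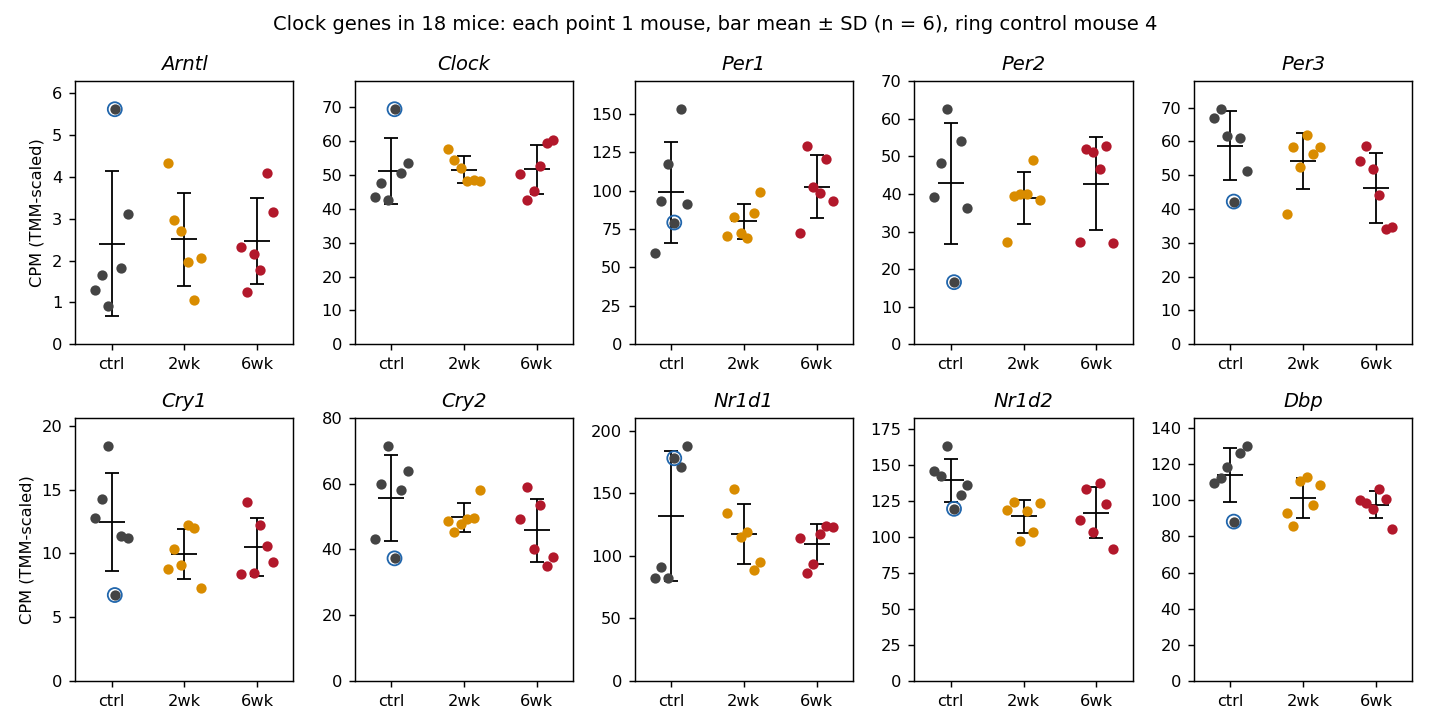
Level of each clock gene (y axis, TMM-scaled CPM) in each mouse, by group (x axis). Points are mice, bars are the mean ± SD of 6 mice, and the ring marks control mouse 4, which was the highest control for Arntl (5.62 CPM) and Clock (69.5 CPM) and the lowest for Per2 (16.5 CPM). All groups overlap in every panel.

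The Period genes encode the repressors that accumulate over the day. Per1 (ENSMUSG00000020893, chr11:69095217-69109960), which also responds acutely to hormones, ranged from 59.1 through 92.3 to 153 CPM in controls, from 69.1 through 77.7 to 98.9 CPM at 2 weeks, and from 72.1 through 100.3 to 129 CPM at 6 weeks. The spread was widest among controls, and the 2-week mice lay in the lower part of it. Its largest difference was between the irradiated groups, with a log2 fold change of 0.36 (SE 0.180) from 2 to 6 weeks, an unadjusted P of 0.0598 and an adjusted P of 0.26 by edgeR. On the log2(TPM + 1) scale this difference was called, at 0.61 (limma, adjusted P = 0.0384), of which 0.11 is the shift of all genes.

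Per2 (ENSMUSG00000055866, chr1:91415982-91459324) ranged from 16.5 through 43.7 to 62.6 CPM in controls, from 27.1 through 39.7 to 49.0 CPM at 2 weeks, and from 26.9 through 48.8 to 52.8 CPM at 6 weeks. The lowest value, in control mouse 4, was specific to the count scale. In TPM that mouse had 6.45, inside the control range of 5.54 to 9.49 TPM. Counts per TPM follow the transcript length that the quantification assigns to a gene, and relative to the median gene of the same mouse that length was 1.14 for Per2 in control mouse 4 and 2.45 to 2.67 in the other 17 mice. Which Per2 transcripts those reads came from was not tested. The log2 fold changes were -0.13 (SE 0.246) and -0.0012 (SE 0.245).

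Per3 (ENSMUSG00000028957, chr4:151003652-151044665) had the most negative estimate of the clock genes at 6 weeks. It ranged from 42.2 through 61.2 to 69.5 CPM in controls, from 38.4 through 57.2 to 61.9 CPM at 2 weeks, and from 34.0 through 48.0 to 58.5 CPM at 6 weeks. 6-week mice 5 and 6 were the lowest of all 18, at 34.0 and 34.5 CPM, and the 6-week range reached well into that of the controls. Its estimate at 6 weeks was -0.34 on the log2 scale (SE 0.149, edgeR adjusted P = 0.103). Without control mouse 4 it was -0.42 (adjusted P = 0.0378), past the threshold.

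The Cryptochromes are the stronger repressors of the ARNTL and CLOCK pair. Cry1 (ENSMUSG00000020038, chr10:85131700-85185064) ranged from 6.73 through 12.05 to 18.4 CPM in controls, from 7.26 through 9.73 to 12.2 CPM at 2 weeks, and from 8.41 through 9.93 to 14.02 CPM at 6 weeks. Both the lowest and the highest of the 18 values were controls. Its log2 fold changes were -0.31 (95% interval -0.72 to 0.10) and -0.24 (-0.64 to 0.17).

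Cry2 (ENSMUSG00000068742, chr2:92403646-92434043) ranged from 37.3 through 59.0 to 71.4 CPM in controls, from 45.2 through 48.9 to 58.1 CPM at 2 weeks, and from 35.1 through 44.7 to 58.9 CPM at 6 weeks. The 2-week mice lay close together, with an SD of 4.39 CPM beside 12.9 CPM in controls. The log2 fold changes were -0.16 (-0.47 to 0.15) and -0.28 (-0.59 to 0.03), and the second was -0.37 without control mouse 4 (edgeR, adjusted P = 0.0493).

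The REV-ERB receptors close the other loop by repressing Arntl. Nr1d1 (ENSMUSG00000020889, chr11:98767932-98775333) fell into separate sets among the controls, with 3 mice at 82.1 to 90.7 CPM and 3 at 171 to 188 CPM. At 2 weeks the mice spread over 89.1 to 154 CPM, and at 6 weeks over 86.1 to 123 CPM, all below the higher set of controls. The log2 fold changes were -0.16 (SE 0.208, adjusted P = 0.708 by edgeR) and -0.27 (SE 0.209, adjusted P = 0.384). Nr1d1 shares 263 exonic bases with Thra on the opposite strand, and the sources used here do not state whether counting used strand. Thra itself fell at 6 weeks by 0.30 on the log2 scale (adjusted P = 0.0378 by edgeR), and without strand, reads of the shared bases cannot be told apart.

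Nr1d2 (ENSMUSG00000021775, chr14:18204054-18239127) came closest to a call at both times. It ranged from 119 through 139 to 163 CPM in controls, from 96.9 through 118 to 124 CPM at 2 weeks, and from 91.4 through 117 to 137 CPM at 6 weeks. At 2 weeks 2 mice lay above the lowest control and the rest below it. The log2 fold changes were -0.29 (SE 0.0977, adjusted P = 0.0957 by edgeR) and -0.26 (SE 0.0977, adjusted P = 0.0626). At 6 weeks the adjusted P was 0.0338 without control mouse 4, 0.0398 without 6-week mouse 2, 0.0281 without 6-week mouse 4, and 0.0364 by limma voom with sample quality weights.

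Dbp (ENSMUSG00000059824, chr7:45705088-45710203), a PAR bZIP factor that carries the clock's signal to output genes, was the steadiest of the 10. It ranged from 88.2 through 115 to 130 CPM in controls, from 85.7 through 103 to 113 CPM at 2 weeks, and from 84.0 through 99.5 to 106 CPM at 6 weeks. The SDs were 15.0, 10.99 and 7.53 CPM. Control mouse 4, the lowest control, lay apart by 0.508 of the control range, and the lowest 6-week mouse by 0.4996 of its group's range. The log2 fold changes were -0.17 (SE 0.0891, adjusted P = 0.293 by edgeR) and -0.23 (SE 0.0892, adjusted P = 0.0705). The second was -0.29 without control mouse 4 (adjusted P = 0.00987) and -0.25 by limma voom with sample quality weights (adjusted P = 0.046).

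The direction for Dbp and for other members at 6 weeks depended on the scale. The mean of Dbp in control, 2-week and 6-week mice was 53.7 ± 6.21, 58.0 ± 6.30 and 61.7 ± 4.77 TPM (SD, n = 6 each). On the log2(TPM + 1) scale Dbp was thus 0.20 higher at 6 weeks (limma, adjusted P = 0.0569), which is below the shift of 0.29 over all genes. Nr1d2 was 0.12 higher and Per3 0.02 higher on that scale, both also below the shift. Dbp shares 539 exonic bases with Sphk2 on the opposite strand, and Sphk2 was not called in any comparison, with log2 fold changes of 0.04 at 2 weeks and -0.08 at 6 weeks.

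The calls of clock genes at 6 weeks changed most without control mouse 4. It had the highest Arntl and Clock of the control mice and the lowest Per2, Per3, Cry1, Cry2, Nr1d2 and Dbp, at 16.5, 42.2, 6.73, 37.3, 119 and 88.2 CPM. In TPM the lowest control for Per2 and Per3 was mouse 6, at 5.54 and 8.78 TPM beside 6.45 and 9.38 TPM in mouse 4. The total of 15166812 counts of control mouse 4 and its mitochondrial share of 23.2% were inside the range of the controls. Without it, 4 of the 10 clock genes were called at 6 weeks, Per3, Cry2, Nr1d2 and Dbp, all lower, beside 3927 of 14992 genes (3760 of 15054 with it). In CPM it was the lowest control for all 4, so leaving it out raises the control mean and these calls are no separate support. Nr1d2 was also called without 6-week mouse 2 or 6-week mouse 4. At 2 weeks and between the times no clock gene was called without it. The hour at which this mouse was sampled is not in the labels.

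The clock genes varied more between mice of a group than most genes of like level. Within groups the SD of log2 CPM was 0.704 for Arntl, 0.502 for Per2, 0.403 for Nr1d1, 0.362 for Cry1 and 0.341 for Per1. Those for Per3, Cry2, Clock, Nr1d2 and Dbp were lower, at 0.287, 0.279, 0.199, 0.179 and 0.162. Among genes within 0.5 log2 CPM of its mean level, the SD of Per2 stood at percentile 96.6, that of Nr1d1 at 94.5 and that of Per1 at 91.6. Dbp was the lowest of the 10, at percentile 63.1. The median over the 10 genes was 0.314, beside 0.244 over all genes tested.

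This variation was ordered. To compare mice without the group differences, each value was taken as its deviation from the mean log2 CPM of its group, and Arntl was set against the other 9 genes over the 18 mice. Clock moved with Arntl, with Pearson r = 0.89 and Spearman rho = 0.837 (permutation test within groups, two-sided, adjusted P = 9e-05 and 0.000585 over the 9 pairs). The unadjusted P of r was 1e-05, the smallest that 100000 permutations can give. The correlation was positive in each group, with r = 0.973 in controls, 0.863 at 2 weeks and 0.847 at 6 weeks.

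**Figure D3:**
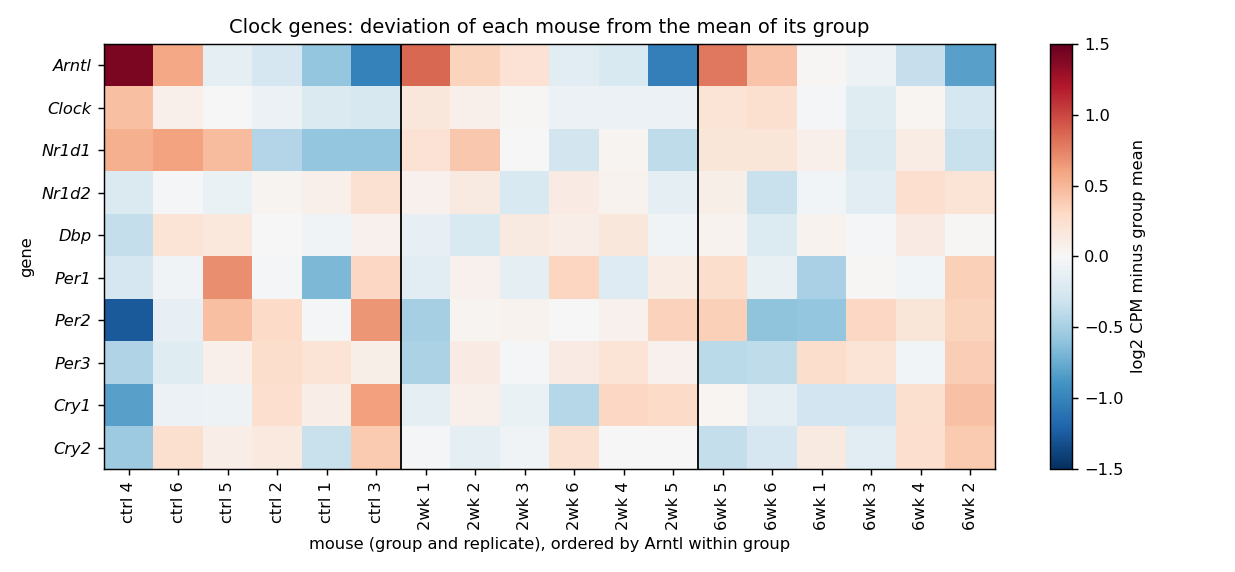
Deviation of each mouse from the mean of its group (colour, log2 CPM) for the 10 clock genes (rows) in 18 mice (columns, ordered by Arntl within each group). Where Arntl is above its group mean, Clock and Nr1d1 tend to be above theirs and Per2, Per3, Cry1 and Cry2 below. The correlation with Arntl is 0.89 for Clock and -0.77 for Per3.

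Most repressors moved the opposite way to Arntl. Per3 had r = -0.774 (rho = -0.624, adjusted P = 0.00081 and 0.0226, permutation test), and Cry1 had r = -0.737 (rho = -0.721, adjusted P = 0.00583 and 0.00612). Per2 had r = -0.711 (rho = -0.581, adjusted P = 0.00704 and 0.0384), and Cry2 had r = -0.606 (rho = -0.562, adjusted P = 0.0266 and 0.0384). All 4 were negative in each of the 3 groups. The steepest within-group values were -0.936 for Cry1 in controls and -0.921 for Cry2 at 6 weeks, and the flattest was -0.261 for Per2 at 6 weeks.

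Nr1d1 moved with Arntl rather than against it, although its protein represses Arntl. It had r = 0.778 (rho = 0.812, adjusted P = 0.00081 and 0.000585, permutation test), and r = 0.809 in controls, 0.797 at 2 weeks and 0.756 at 6 weeks. Its relative Nr1d2 had r = -0.398 (rho = -0.393, adjusted P = 0.136 and 0.152), with r = -0.886 in controls, 0.333 at 2 weeks and -0.496 at 6 weeks. Dbp had r = -0.418 (rho = -0.205, adjusted P = 0.154 and 0.456), and Per1 had r = -0.222 (rho = -0.335, adjusted P = 0.476 and 0.237). For these 3 genes a relation to Arntl was not shown.

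The mice farthest from the median of Arntl were control mouse 4 and 2-week mouse 1. Without both, r was 0.823 for Clock, 0.753 for Nr1d1, -0.641 for Per3, -0.606 for Cry1, -0.474 for Per2 and -0.473 for Cry2. Each of these kept its sign, and those of Per2 and Cry2 were the most reduced of the 6. For Dbp r without both mice was -0.0351 and for Per1 -0.0885. No P was computed without these mice, so whether each pair would still pass the threshold was not tested. On the log2(TPM + 1) scale r for Per2 was -0.555 (adjusted P = 0.0305, permutation test), so its relation to Arntl did not rest on the count scale alone.

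**Figure D4:**
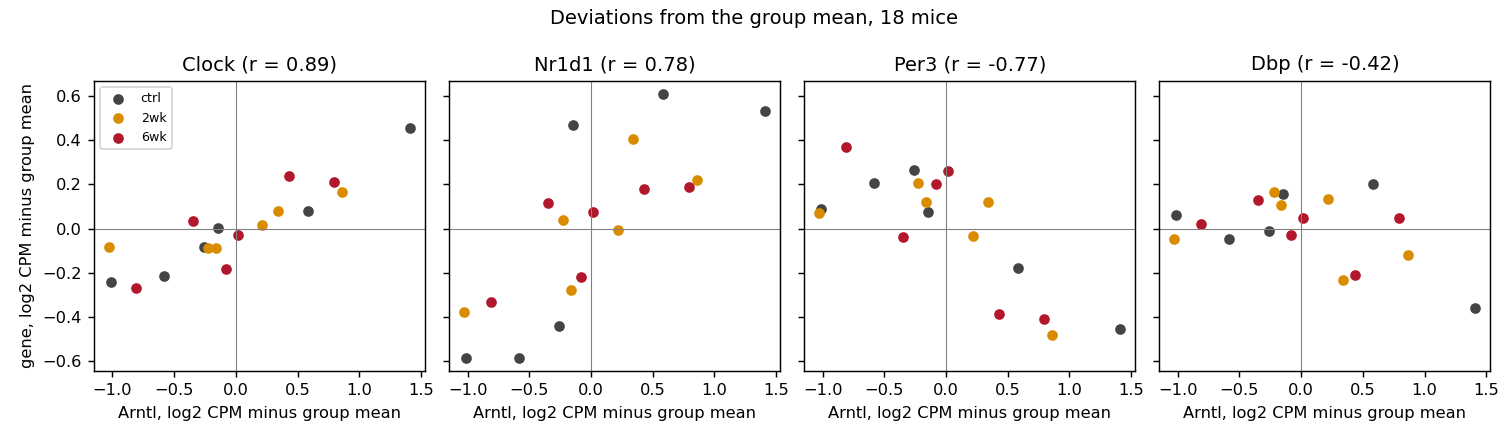
Deviation of Clock, Nr1d1, Per3 and Dbp (y axes) against that of Arntl (x axis), in log2 CPM minus the group mean. Points are the 18 mice, coloured by group. Clock and Nr1d1 rise with Arntl (r = 0.89 and 0.78), Per3 falls (r = -0.77), and Dbp shows a weaker slope (r = -0.42).

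Among all 14916 other genes with a unique symbol, Clock ranked 2nd from the highest by r with Arntl and Nr1d1 ranked 10th. From the lowest, Per3 ranked 16th, Cry1 30th and Per2 49th. The PAR bZIP gene Tef ranked 13th from the lowest, with r = -0.78, and Rora and Hlf lay at -0.692 and -0.683. Bhlhe40, an E-box repressor, moved with Arntl at r = 0.676, whereas its relative Bhlhe41 stood at -0.243. Cry2 and Per1 lay less far down, 200th and 3358th from the lowest, and Npas2, a relative of Clock, and Ciart had r of 0.161 and 0.234. The 5 genes outside the clock most like Arntl were Slc41a3 (r = 0.891), Dock4 (0.858), Col5a3 (0.832), Fam220a (0.811) and 0610009B22Rik (0.805), as descriptions over 18 mice. Those most like Dbp were Il17rb (0.883), Atp2a2 (0.811), which encodes the calcium pump SERCA2, Prodh (0.811), Poc1a (0.804) and Mrpl47 (0.803). Il17rb and Poc1a were low, with mean log2 CPM of -0.04 and 0.47.

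All 10 pairs among the Period and Cryptochrome genes had a positive correlation of deviations, from 0.0705 for Per1 with Per3 and 0.25 for Per1 with Cry1 to 0.592 for Per1 with Per2 and 0.746 for Per2 with Cry1. The output factor Dbp stood at 0.64 with Cry2 and 0.595 with Per2, and at 0.291 with Per1. Clock and Per3 were the most opposed pair, at -0.863. These values are descriptions over the same 18 mice and were not tested.

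Of 14 further clock components, 3 changed at 6 weeks and none at 2 weeks or between the times, by edgeR at an adjusted P under 0.05. Over all genes the shares called were 25.0% at 6 weeks, 5.02% at 2 weeks and 5.33% between the times, so the 3 of 14 are near the background and no result about these components as a list. At an unadjusted P under 0.05 the counts were 6 at 6 weeks, 3 at 2 weeks and 1 between the times. The share of all genes at that threshold was not counted, and it is at least the share called. DESeq2 called 1 of them at 2 weeks. The median log2 fold change of the 14 was -0.067 at 2 weeks and -0.16 at 6 weeks, and of the 3 called genes Bhlhe40 was higher and Hlf and Rorb were lower. The 6-week and control values were fully apart for 1 of the 14, Bhlhe40, beside 9.23% of all genes.

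Bhlhe40, which encodes the E-box repressor DEC1, ranged from 45.7 through 64.3 to 72.0 CPM in controls and rose to 78.8 through 90.5 to 123 CPM at 6 weeks. The 2-week mice lay between, at 64.3 through 79.4 to 84.4 CPM. On the log2 scale the rise from controls was 0.65 at 6 weeks (SE 0.119, edgeR adjusted P = 0.000644), and the 2-week estimate was 0.33 (adjusted P = 0.122). The call at 6 weeks held in all 11 other settings and in all 18 fits without 1 mouse.

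Hlf, a PAR bZIP relative of Dbp, fell from a median of 49.5 CPM (30.04 to 54.6) in controls to 28.6 CPM (15.8 to 34.2) at 6 weeks, with 36.6 CPM (22.2 to 37.7) at 2 weeks. Against controls the 6-week value was -0.79 on the log2 scale (SE 0.171, adjusted P = 0.00223 by edgeR). The third PAR bZIP gene, Tef, stood at -0.33 (adjusted P = 0.0991). The difference between these relatives was not tested.

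The ROR receptors activate through the element that REV-ERB receptors repress. Rorb was low throughout, at 2.93 to 5.44 CPM in controls and 0.964 to 3.64 CPM at 6 weeks, and fell by 0.87 on the log2 scale (SE 0.254, edgeR adjusted P = 0.0166). Rora was at 56.4 CPM in controls and 50.03 CPM at 6 weeks on average, a log2 fold change of -0.17 (adjusted P = 0.0929). At 2 weeks Rorb stood at -0.83 (adjusted P = 0.0633). On both TPM scales P tests a change from 0 and not from the shift of all genes. There Hlf was not called at 6 weeks, with an adjusted P of 0.105 by limma at a pseudocount of 1. P has the same meaning on library size alone, where Rorb was not called at 6 weeks (edgeR, adjusted P = 0.0713).

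**Figure D5:**
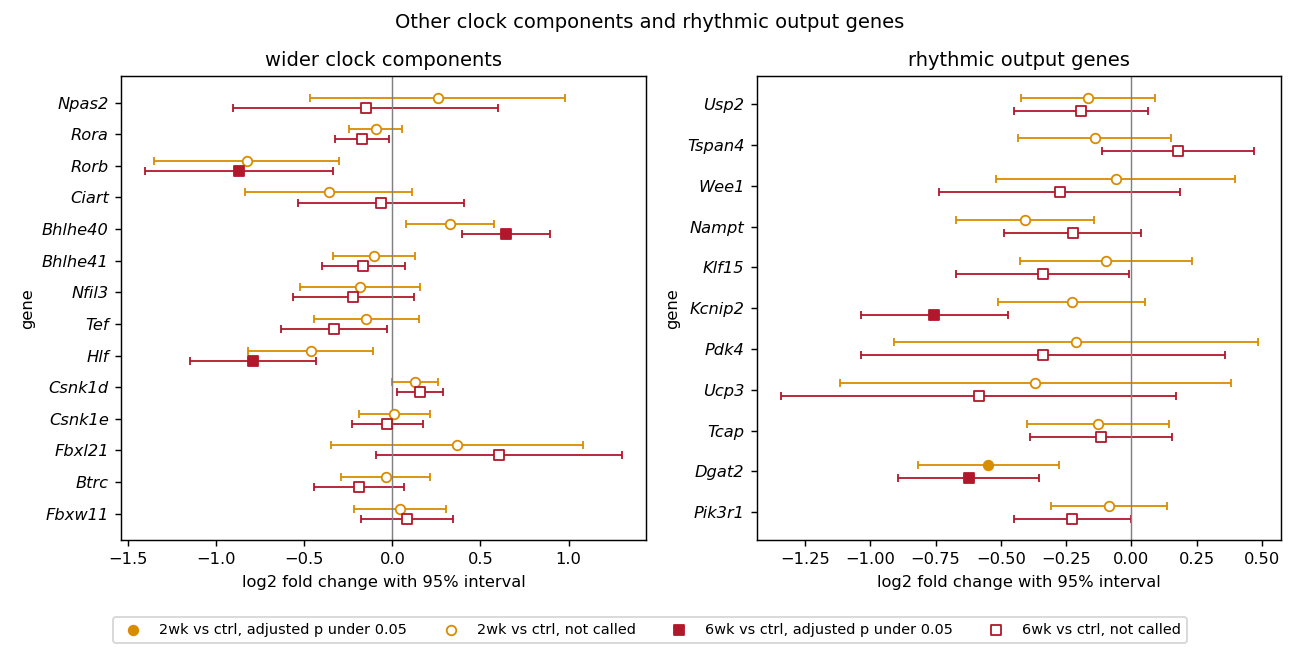
Log2 fold change with its 95% interval (x axis) of 14 further clock components and 11 rhythmic output genes (y axes), for 2 weeks (circles) and 6 weeks (squares) against the same 6 controls. Filled symbols mark an adjusted P under 0.05 by edgeR. Filled at 6 weeks are Bhlhe40 (0.65), Hlf (-0.79), Rorb (-0.87), Kcnip2 (-0.75) and Dgat2 (-0.62), and at 2 weeks Dgat2 (-0.55).

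Of 11 output genes known to cycle in the heart, 1 fell at 2 weeks and 2 at 6 weeks, and none was called higher, beside 5.02% and 25.0% of all genes called in either direction (1.93% and 11.5% lower). These counts are too close to the background to be a result about the list. On TMM-scaled counts the median log2 fold change of the 11 was -0.17 at 2 weeks and -0.27 at 6 weeks. Over all genes it was -0.0015 and -0.019. All 11 estimates were below 0 at 2 weeks and 10 at 6 weeks. The share of all genes below 0 was not counted, and the direction of the list was not tested. Dgat2, an enzyme of triglyceride synthesis, fell from a median of 219 CPM in controls to 144 CPM at 2 weeks and 136 CPM at 6 weeks (log2 fold changes of -0.55 and -0.62, adjusted P = 0.0197 and 0.00158 by edgeR). The 2-week call was lost without control mouse 3 (adjusted P = 0.0527), and on log2(TPM + 1) neither call held (limma, adjusted P = 0.0626 at 2 weeks and 0.103 at 6 weeks). Kcnip2, the subunit of the transient outward potassium channel, was 154 to 233 CPM in controls and 84.8 to 152 CPM at 6 weeks, with no overlap, which is -0.75 on the log2 scale (SE 0.135, edgeR adjusted P = 0.000484). It also fell from 2 to 6 weeks, by 0.53 on the log2 scale (adjusted P = 0.0314). Klf15, a clock-driven regulator of Kcnip2, stood at -0.34 at 6 weeks (adjusted P = 0.128). Without control mouse 4 the count of the 11 called at 6 weeks was 4.

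Genes that respond to hormones, handling or temperature can move clock genes or be moved with them, and their values stand beside the results. Of 10 glucocorticoid-responsive genes 1 was called at 6 weeks, the metallothionein Mt2 at 0.94 (adjusted P = 0.048 by edgeR), and 2 between the times, Mt2 at 1.26 (adjusted P = 0.0393) and the kinase Sgk1 at 0.60 (adjusted P = 0.0221). Beside these stand 25.0% and 5.33% of all genes called, and between the times DESeq2 called 3 of the 10 and limma voom 1. None was called at 2 weeks by edgeR, where 3 had an unadjusted P under 0.05 and DESeq2 called 1. Without 6-week mouse 5 the 6-week value of Mt2 was 0.66 (adjusted P = 0.148), and the call was lost in 13 of 18 fits without 1 mouse. Of 6 immediate early genes 1 was called, Junb at 6 weeks (0.63, adjusted P = 0.0148), where 25.0% of all genes were called. None of 5 temperature-responsive genes was called by edgeR, DESeq2 or limma voom, and 0, 0 and 2 had an unadjusted P under 0.05 in the 3 comparisons. The share of all genes at an unadjusted P under 0.05 was not counted, and it is at least the share called. Hspa8, a chaperone of that list, averaged 476, 480 and 441 CPM in the 3 groups. The part of these genes in the clock values was not tested.

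Markers of cell types moved at the same time. All 5 cardiomyocyte markers were lower at 6 weeks by edgeR, with log2 fold changes of -0.61 for Actc1, -0.60 for Ryr2, -0.53 for Tnnt2, -0.46 for Myh6 and -0.38 for Pln, and their summed level was 15217 to 21056 TPM in controls and 15737 to 18254 TPM at 6 weeks. The calls were lost in 9 of 18 fits without 1 mouse for Tnnt2 and in 4 of 18 for Myh6, and all 5 were lost on log2(TPM + 1) except that of Ryr2. All 5 macrophage markers were higher, C1qb by 1.29, Adgre1 by 1.26, C1qa by 1.24, Csf1r by 0.77 and Cd68 by 0.75 on the log2 scale, with sums of 34.5 to 100.4 TPM in controls and 123 to 211 TPM at 6 weeks. Of 5 endothelial markers Pecam1 (0.90) and Cdh5 (0.53) were higher and Tie1 (-0.44) and Tek (-0.75) lower at 6 weeks. Of 5 fibroblast markers only Pdgfra (-0.88) was called, as lower. Dcn stood at -0.33, and Tcf21, Col1a1 and Col3a1 at 0.16, 0.10 and 0.18. The median summed level of the 5 fibroblast markers was 427 TPM in controls and 566 TPM at 6 weeks. The Cd68 call was lost in 3 of 18 fits without 1 mouse. At 2 weeks 6 of these markers were called already, Pecam1 (0.48) and C1qa (0.58) higher and Pln (-0.37), Tek (-0.40), Tie1 (-0.27) and Pdgfra (-0.55) lower. The call of Tie1 was lost in 12 of 18 fits without 1 mouse, that of C1qa in 6 and that of Tek in 3. On library size alone and on log2(TPM + 1), where P tests a change from 0, all of the lower calls were lost. By limma on log2(TPM + 1) the adjusted P was 0.465 for Pln, 0.476 for Tek, 0.676 for Tie1 and 0.222 for Pdgfra. The 6-week call of Tie1 was also lost on that scale (limma, adjusted P = 0.654). Of the red cell genes tested, 1 of 3 was called at 6 weeks, Hba-a1 (-2.20, adjusted P = 0.0313 by edgeR), a call lost in 7 of 18 fits without 1 mouse. None of 3 atrial and 3 adipocyte markers tested was called by edgeR, DESeq2 or limma voom, and 0 had an unadjusted P under 0.05 by edgeR. The highest of them, Nppa among the atrial and Cfd among the adipocyte markers, averaged 525, 325 and 366 CPM and 4.49, 5.08 and 5.77 CPM in the 3 groups. No marker of these lists was at 0 in every mouse. The part of these shifts in the values of the clock genes was not tested.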

How the data were processed

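The authors sequenced RNA from 18 mice, 6 per group, with 1 mouse as 1 replicate, so P values measure the spread between these mice. The authors aligned reads to GRCm38 with STAR, quantified transcripts with Salmon (1.0 per the labels, with CASAVA 1.8 upstream) and summed them to genes with tximport. The deposited estimated counts carry no scaling between mice. The TPM table deposited with them corrects for length and total within 1 mouse. Whether counting used strand is not given in the sources used here.

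Counts were rounded and analysed with edgeR 4.0.16 in R 4.3.3. A gene was kept where 6 or more mice reached 0.23 CPM (15054 genes), libraries were scaled by TMM, and 1 quasi-likelihood model held the 3 groups. F tests were two-sided with Benjamini-Hochberg adjustment over all genes within a comparison, and a call means that the adjusted P is below 0.05. Each SE was taken as the size of the log2 fold change over the square root of F. Log2 CPM used a prior count of 2. Correlations used deviations from group means and 100000 permutations within groups (seed 46, numpy 2.4.6, scipy 1.17.1). Floors of 3 counts cover counting error only, and PCR reads are not independent molecules.

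The clock genes and the 12 other lists were chosen with earlier results of these data known. The text names every clock gene, every gene of another list called in any comparison, for a list with no call the gene of highest mean level, and the 5 genes most like Dbp and Arntl. Rora, Tef, Klf15, Thra and Sphk2 were named after their values were seen. Some clock components are not reported here. Replicate numbers do not pair the mice. Alternatives were DESeq2 1.42.0, limma 3.58.1 voom with and without quality weights, other scalings and filters, limma on log2(TPM) with pseudocounts of 1 and 0.1, a replicate block, and leaving out each mouse. The code was tested on simulated counts. Promoter windows are from RefSeq, and none was used for Per2. Gene coordinates on GRCm38 come from GENCODE M21, whereas the authors' annotation release may differ.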

Additional observations from a re-analysis of the deposited data

Results flagged for a closer look

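Among the 2-week mice, mouse 6 stood apart for Cry2, at 58.1 CPM beside 45.2 to 49.6 CPM in the other mice of its group. Its gap to the nearest mouse was 0.661 of the range of the group, above the limit of 0.625 for 6 samples. It was the only such case in 30 groups of clock gene values, where chance gives about 1 in 20, and the value lay inside the control range. Control mouse 4 was below that limit for Clock, with a gap of 0.598 of the range.

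The 2-week and 6-week mice differed for 9 genes of the other lists by the direct edgeR comparison of the irradiated groups, where 5.33% of all genes were called. Hour of collection, age and time after irradiation cannot be told apart in this comparison. The log2 difference of 6 from 2 weeks was -0.53 for Kcnip2 (adjusted P = 0.0314), 1.26 for Mt2 (adjusted P = 0.0393) and 0.60 for Sgk1 (adjusted P = 0.0221). Among the cell type markers it was 0.42 for Pecam1, 0.40 for Cdh5 and -0.36 for Tek (endothelial), 0.66 for C1qa and 0.80 for C1qb (macrophage) and -0.40 for Actc1 (cardiomyocyte), with adjusted P values of 0.01 to 0.0388. The values did not overlap between the times for any of these genes except Mt2 and Tek, beside 3.54% of all genes without overlap. The genes were picked by their call, so the lack of overlap is no separate support. They come from several lists, and their number is no result about those lists. For Sgk1 the 2-week mice lay at 34.0 to 49.9 CPM, the 6-week mice at 54.1 to 77.6 CPM and the controls at 39.3 to 70.2 CPM. Leaving out 1 mouse ended the call in 7 of 18 fits for Kcnip2, 10 of 18 for Mt2, 2 of 18 for Sgk1, and 9 of 18 each for Actc1 and Tek, and in none for Pecam1, Cdh5, C1qa and C1qb.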

How the results depend on the processing

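Of 330 log2 fold changes of clock genes under other settings, 6 passed an adjusted P of 0.05, and of 540 without 1 mouse 6 passed. The count of clock genes called at 6 weeks was 0, and became 2 with limma voom and sample quality weights, 1 on both TPM scales, and 0 to 4 without 1 mouse, with 4 without control mouse 4. Between the times it was 1 on both TPM scales. It was 0 in all other settings and comparisons run. On the TPM scales and on library size alone P tests a change from 0, while the values here are relative to the median of all genes. That median was 0.18, 0.29 and 0.11 at 2 weeks, 6 weeks and between the times on log2(TPM + 1), and 0.24, 0.37 and 0.15 on log2(TPM + 0.1). All 27 correlations recomputed with Arntl kept their direction and their side of the threshold, with 6 of 9 pairs past it each time. They were recomputed on log2(TPM + 1), on library size alone and as Spearman rho. The values of r without the mice farthest from the median of Arntl had no P and are not among them.

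Genes with a difference near 0 changed sign. Arntl at 6 weeks was 0.034 with DESeq2, 0.15 with limma voom, 0.23 with quality weights, 0.0093 on library size, 0.0035 with median-of-ratios factors, 0.15 on log2(TPM + 0.1) and 0.054 with the replicate block, and at 2 weeks -0.0043 on log2(TPM + 1). Per2 at 6 weeks was 0.0033 with DESeq2, 0.061 with limma voom, 0.022 on library size, 0.0046 with median-of-ratios factors, 0.0024 with the stricter filter and 0.0095 with the replicate block. Clock from 2 to 6 weeks was -0.0041 with limma voom, -0.026 with quality weights, -0.0037 on log2(TPM + 0.1) and -0.0076 with the replicate block, and Nr1d2 was -0.0037 with quality weights.

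Without 1 mouse, Arntl ranged from -0.20 to 0.50 at 2 weeks, -0.20 to 0.48 at 6 weeks and -0.22 to 0.20 between the times, and Clock from -0.037 to 0.11, -0.034 to 0.12 and -0.042 to 0.055. Per2 ranged from -0.30 to 0.0065 at 2 weeks and -0.17 to 0.14 at 6 weeks, Per1 from -0.058 to 0.23 at 6 weeks, Cry1 from -0.029 to 0.14 and Nr1d2 from -0.020 to 0.094 between the times. The cause of these changes was not tested.

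Of the 14 further clock components, 2 were called at 2 weeks on library size and on both TPM scales, 1 with DESeq2 and with quality weights, and 0 to 2 without 1 mouse (2 without control mouse 4). At 6 weeks 5 were called on library size and on both TPM scales. Between the times 1 was called on library size and both TPM scales. Of the 11 output genes, 2 were called at 2 weeks with DESeq2, 0 on both TPM scales and 0 to 2 without 1 mouse (0 without control mouse 3). At 6 weeks 2 to 4 were called without 1 mouse. Between the times 0 were called on library size, on both TPM scales and with the replicate block, and 0 to 1 without 1 mouse. Same-numbered mice did not deviate together (r of -0.0828 to 0.106 over 18 pairs, 2 above 0.1). With the replicate block 586 genes were called at 2 weeks, 3549 at 6 weeks and 542 between the times, and no clock gene. All genes called rose to 5820 at 6 weeks on library size and to 7472 on log2(TPM + 1). DESeq2 called 1216 at 2 weeks, and library size 1789.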

Other observations

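The values of Per2 in counts and in TPM parted in 1 mouse. The length assigned to Per2 relative to the median gene varied 2.34 times over the 18 mice, more than in 91.1% of genes, and without control mouse 4 it stayed between 2.45 and 2.67. For Per1 it varied 1.61 times, from 1.03 to 1.66, and for Per3 1.34 times, from 1.94 to 2.60. Arntl, Clock and Nr1d1 varied by 1.02, 1.06 and 1.06 times. A difference in CPM of the Period genes between mice can therefore hold a difference in assigned transcript length, and the transcripts themselves were not analysed here.

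The ratio of the highest to the lowest mouse within a group was larger in controls than in either irradiated group for 8 of the 10 clock genes, among them Arntl (6.07, 4.08 and 3.28 times), Per2 (3.79, 1.81 and 1.96 times), Cry1 (2.74, 1.69 and 1.67 times) and Nr1d1 (2.29, 1.72 and 1.43 times). The same count over all genes was not made, so the 8 of 10 is no result about the clock genes. Control mouse 4 was an end of the control range for Arntl, Per2 and Cry1. The difference in spread was not tested.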
